A study of Saccharomyces cerevisiae with 9 samples.

Results

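The NaCl response of yeast whose RNA polymerase II carried a wild-type carboxyl-terminal domain (CTD) was described across the genome from the 3 of 9 arrays labelled CTD14. The CTD is the repeated tail of Rpb1, the largest polymerase subunit, and RPO21 is the gene for Rpb1. CTD14 cells lacked the chromosomal RPB1 gene and expressed RPB1 with only wild-type CTD repeats from a plasmid. The other arrays came from CTD2A and CTD5A cells, 3 arrays each. The CTD2A plasmid copy had repeats with alanine in place of serine 2 before a run of wild-type repeats. The CTD5A copy had repeats with alanine in place of serine 5 before such a run. All 3 strains thus lacked the endogenous gene and depended on a plasmid, and no cells with a chromosomal RPB1 were among the 9 arrays. By the paper's counts, CTD2A and CTD5A differed in the number of altered repeats, and all 3 strains differed in CTD length. Strain contrasts cannot tell these differences apart from the substitutions. Cultures grew in shaken rich YPD medium at 30 °C, and each array set cDNA from cells at 30 min in 0.7 M NaCl against cDNA of the same strain before salt. A value is the log2 ratio of salt-treated over unstressed, so 1 unit is a 2-fold change, and it is a difference that holds no information on the level of a transcript. The salt-treated sample carried the same dye on all 9 arrays, so a dye effect on a feature and its salt response cannot be told apart in CTD14 alone. No ratio checks the repeats themselves, since the labels alone say which RPB1 a strain carried. The labels do not say that the 3 arrays came from separate cultures, and p-values measure only the spread between these samples, which may be technical.

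Osmotic stress makes yeast lose water, and the cell responds by making and keeping glycerol as an internal osmolyte. The Hog1 kinase cascade drives much of this response, together with the general stress factors Msn2 and Msn4. Growth pauses at the same time, and genes for making ribosomes, which take up much of the transcription of a growing cell, are known to be turned down in many stresses. Sodium is toxic in itself and is pumped out by P-type ATPases and antiporters.

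The table held 6868 features, and 6230 had a value on all 3 CTD14 arrays and were tested against 0 with limma and Benjamini-Hochberg adjustment (two-sided, all 9 arrays in 1 fit). A feature with an adjusted p below 0.05 is called induced when its mean is positive and repressed when it is negative. By this rule 2104 features (33.8%) were induced and 2204 (35.4%) were repressed, so 4308 (69.1%) were called in either direction. The 33.8% and 35.4% are the background for the counts of every list below. Called and at least 2-fold up were 957 features (15.4% of the 6230 tested), and called and at least 2-fold down were 811 (13.0%). Protein-coding genes went the other way, with 732 of 5710 up and 803 down, while nuclear tRNA genes had 101 up and 0 down. In size, induction reached further than repression. The means ran from -4.49 to 8.47 around a median of -0.01. There were 52 features with a mean of at least 4 and 2 with a mean of at most -4, while the median size of a called change was 0.91 for induction and -0.82 for repression. A feature is flat when the 95% confidence interval of its mean lies within 0.5 log2 units of 0, and 1176 features (18.9%) were flat. A further 821 features were neither called nor flat, so their response was not determined by 3 arrays, and 75 flat features were called because a small change had a smaller error.

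**Figure D1:**
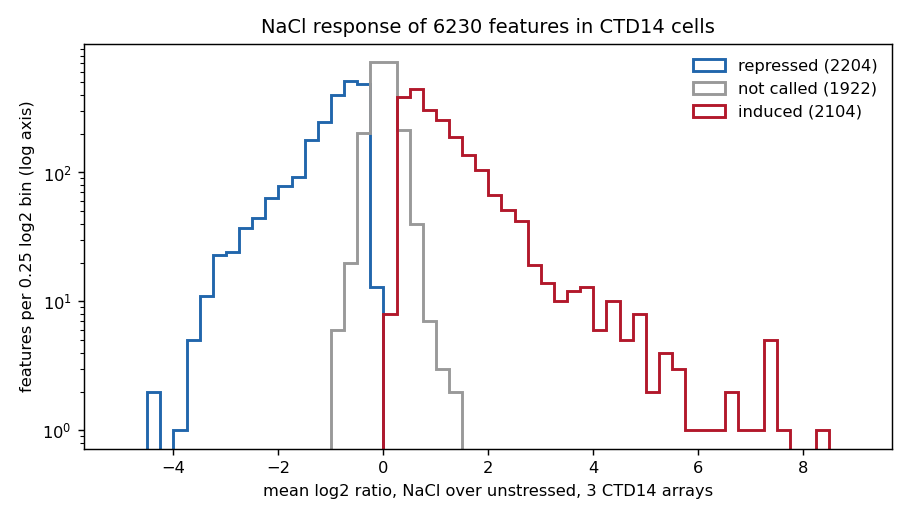
Distribution of the mean log2 ratio (salt-treated over unstressed, 3 CTD14 arrays) of 6230 features in bins of 0.25 log2 units, on a logarithmic count axis, for induced, repressed and uncalled features drawn separately. The induced tail extends to 8.47 and the repressed tail to -4.49.

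The 3 arrays did not vary alike. Across features replicate 1 correlated with replicate 3 at r = 0.946, replicate 2 with replicate 3 at 0.924, and replicate 1 with replicate 2 at 0.885, where features are not independent replicates. The SD of the values over features was 1.116, 1.279 and 1.169 in replicates 1, 2 and 3. Without replicate 2, 3919 features were called, and 3738 of these were among the 4308 called with all 3 arrays. Groups in which replicate 2 decided a count are given with and without it below.

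The gene with the highest mean was STL1 (YDR536W), the glycerol and proton symporter of the plasma membrane, at 8.13, 9.11 and 8.17 in replicates 1, 2 and 3. Its mean of 8.47 ± 0.55 (SD, n = 3) is a 355-fold rise, with a limma adjusted p of 5.04e-08. The next named genes were FMP48 (7.57), which encodes a mitochondrial protein with a kinase domain, RTC3 (7.46), and HSP12 (7.40), which encodes a small membrane-associated stress protein. MPC3 (YGR243W), a subunit of the mitochondrial pyruvate carrier, stood at 7.25, 7.57 and 7.02, a mean of 7.28 ± 0.27 (SD, n = 3). PHM7 had the same mean of 7.28, and TKL2, a minor transketolase, had 7.08. The 12 highest named genes also held HXT5 (6.76), a hexose transporter known from slow growth, and NQM1 (6.64), the minor transaldolase. Cytosolic catalase CTT1 (YGR088W) was at 6.72, 6.60 and 6.39, a mean of 6.57 ± 0.17 (SD, n = 3). GPP2 (6.06), a glycerol-3-phosphate phosphatase, and ALD3 (5.81), a cytosolic aldehyde dehydrogenase, completed the 12. All 3 arrays of each of these genes were above 5.6 log2 units. A gene without a standard name, YNL194C, ranked with them at 6.99, 8.21 and 7.01, and its neighbour YNL195C had a mean of 5.31.

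The most repressed gene was NSR1 (YGR159C), the yeast nucleolin needed for processing of pre-rRNA, at -4.39, -4.32 and -4.75. Its mean of -4.49 ± 0.23 (SD, n = 3) is a 22.4-fold fall, with a limma adjusted p of 8.10e-08. PHO84 (YML123C), the high-affinity phosphate transporter, varied more between arrays, at -4.51, -3.56 and -5.11, with a mean of -4.40. Ribosome assembly supplied 6 more of the 12 lowest: SYO1 (-3.77), which escorts 2 ribosomal proteins into the nucleus, RRS1 (-3.60), the GTPase gene NOG1 (-3.57), UTP23 (-3.41), RRP12 (-3.38) and the helicase gene DBP3 (-3.37). RRS1 hardly varied, at -3.56, -3.59 and -3.66. Outside ribosome assembly the lowest were MAE1 (-3.69), the mitochondrial malic enzyme, AAH1 (-3.59), adenine deaminase, SFG1 (-3.57), a transcription factor of growth form, and HO (-3.33), the endonuclease of mating-type switching. Each of the 12 was at or below -2.83 on every array.

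**Figure D2:**
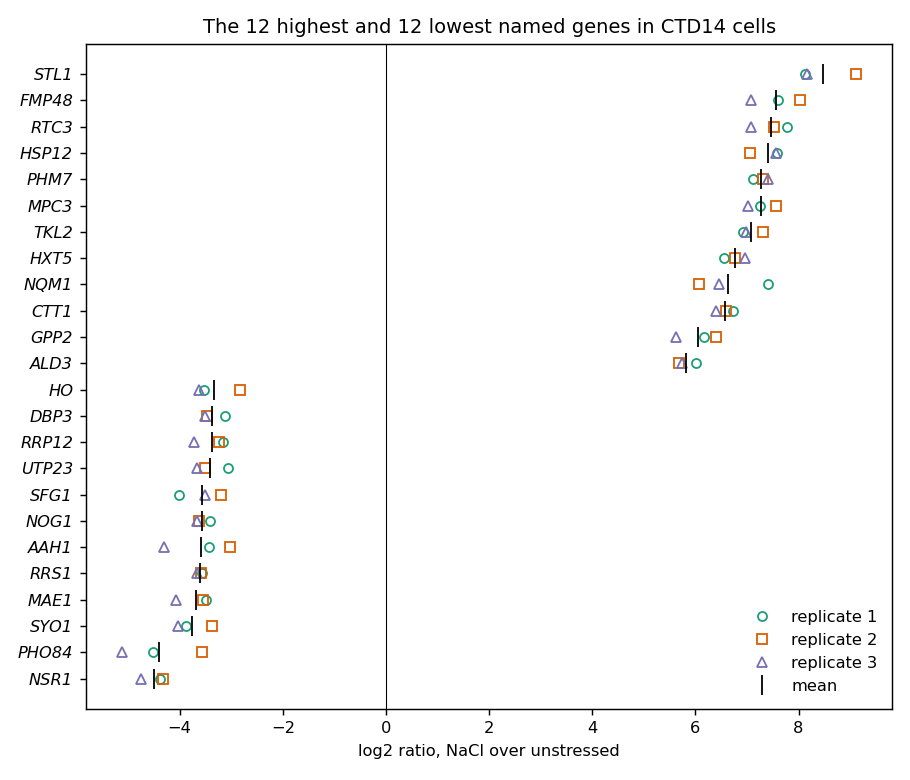
Log2 ratio (salt-treated over unstressed) of the 12 named genes with the highest and the 12 with the lowest CTD14 means, with a marker for each of the 3 arrays and a bar for the mean. STL1 leads at 8.47 and NSR1 is lowest at -4.49, and no array of any gene crosses 0.

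Glycerol genes were mainly induced, but genes of the same step could differ. Of 16 members tested, 11 were induced and 3 repressed, with a median of 1.03 against -0.01 for all features. The committed step from dihydroxyacetone phosphate is catalysed by 2 glycerol-3-phosphate dehydrogenases that responded in opposite directions. GPD1 (YDL022W) rose on every array, at 5.23, 5.53 and 4.97, a mean of 5.24 ± 0.28 (SD, n = 3, limma adjusted p 1.44e-08). GPD2 (YOL059W) fell, at -0.63, -1.81 and -0.95, a mean of -1.13 ± 0.61 (SD, n = 3, limma adjusted p 8.14e-04). The phosphatases of the next step both rose, GPP2 by 6.06 and GPP1 by 0.94, and the 3 arrays of GPP1 spread from 0.31 to 1.5. Genes for taking glycerol apart rose too. DAK1 (2.46), dihydroxyacetone kinase, was at 2.48, 2.5 and 2.40, and DAK2 had a mean of 1.12. The mitochondrial dehydrogenase gene GUT2 (1.51) and the aldo-keto reductase genes YPR1 (1.63) and GCY1 (1.19) were also induced, while glycerol kinase GUT1 rose by 0.29. DAK2 was not called without replicate 1 (1.0) or without replicate 2 (0.94), nor was GUT1 (0.25 and 0.27). At the membrane STL1, the importer, led the genome, while FPS1 (-0.52), the channel through which glycerol leaves the cell, and ASK10 (-1.03), a regulator of that channel, were repressed. RGC1, the paralog of ASK10, was not called at 0.12.

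The split between GPD1 and GPD2 was one case of a wider pattern among duplicated enzymes. Of 37 paralog pairs with both members tested, 12 were called in opposite directions, and in 32 the 3 arrays of one member lay wholly apart from those of the other. Both transaldolase and both transketolase genes of the pentose phosphate pathway belonged to the 12. TKL2 rose by 7.08 while the major enzyme TKL1, at -1.03, -0.91 and -1.47, fell with a mean of -1.14. NQM1 rose by 6.64 while TAL1 had a mean of -0.50. In the same pathway GND2 (4.84) and GND1 (-0.47), the 6-phosphogluconate dehydrogenases, moved apart, and SOL4 (4.89) was induced while its paralog SOL3 was flat at -0.17. The entry enzyme ZWF1 was flat at -0.11.

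The cytochrome c genes were among the clearest, since neither has a value near 0. CYC7 (YEL039C), the minor isoform, was at 2.01, 2.31 and 2.65 and CYC1 (YJR048W), the major isoform, at -2.23, -2.01 and -2.94. The external NADH dehydrogenases of mitochondria behaved likewise, with NDE2 at 1.73 and NDE1 at -1.47. Among sugar kinases HXK1 (2.58) and GLK1 (3.67) were induced, and HXK2 (-0.27), the isoform of growth on glucose, was repressed. The plasma membrane proton pumps PMA2 (0.65) and PMA1 (-1.12) were called in opposite directions, as were the Hsp110 chaperones SSE2 (1.91) and SSE1 (-0.63). Pyruvate kinase PYK2 (1.30) and CDC19 (-0.51) and the phosphoglycerate mutases GPM2 (1.89) and GPM1 (-0.45) were also called in opposite directions. The calls of TAL1, GND1, HXK2, SSE1, CDC19 and GPM1 were each lost when 1 of the CTD14 arrays was left out: -0.3 for TAL1, -0.31 for GND1 and -0.3 for CDC19 without replicate 3, -0.28 and -0.17 for HXK2 without replicates 1 and 3, and -0.47 and -0.52 for SSE1 and -0.42 and -0.32 for GPM1 without replicates 2 and 3. The genes of the related stress factors Msn2 and Msn4 completed the 12. MSN2 (YMR037C) was at 1.59, 1.79 and 1.27, a mean of 1.55, and MSN4 (YKL062W) at -0.90, -0.34 and -0.82, a mean of -0.69. Not all pairs parted, and the glyceraldehyde-3-phosphate dehydrogenase TDH1 (0.00) and the enolases ENO1 (0.04) and ENO2 (-0.12) were flat. Near-identical copies, such as the TDH and ENO genes, may share signal on the array.

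**Figure D3:**
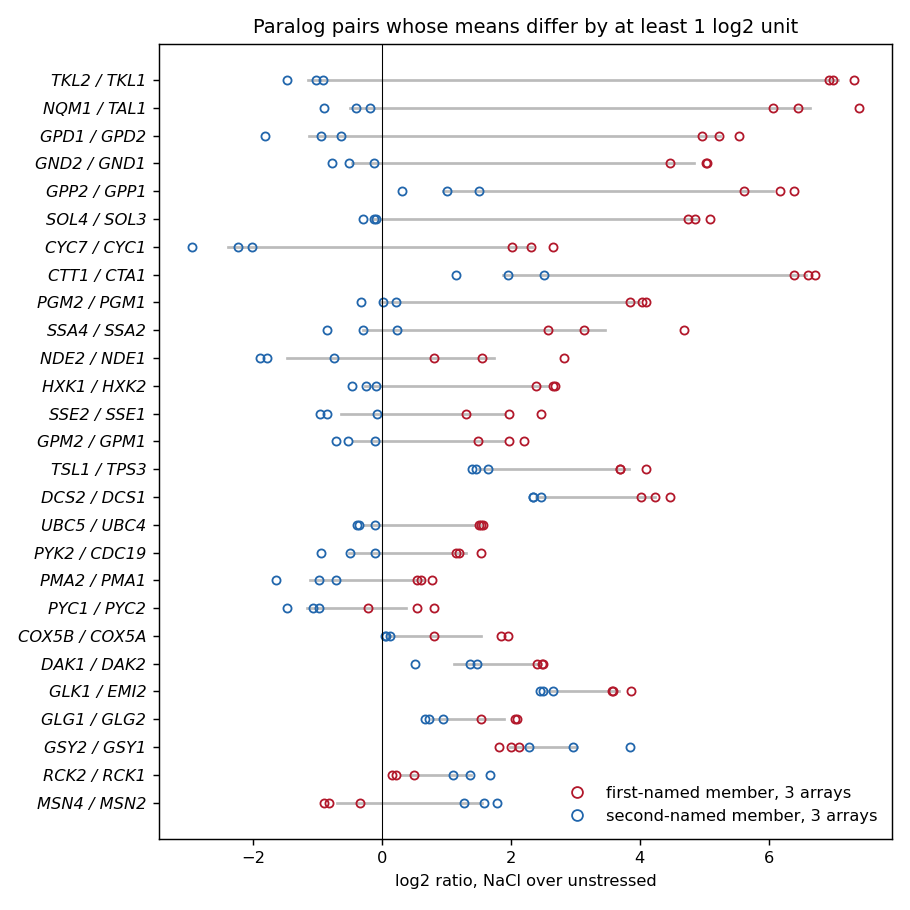
Log2 ratio (salt-treated over unstressed) on each of the 3 CTD14 arrays for both members of the paralog pairs whose means differ by at least 1 log2 unit, joined by a grey line between the means. TKL2 and TKL1 are the farthest apart at 7.08 and -1.14, and MSN4 lies below MSN2.

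Storage carbohydrates responded almost as a unit. All 7 trehalose genes tested were induced, with a median of 2.76. TPS2 (YDR074W), trehalose-6-phosphate phosphatase, was highest at 4.49, 4.68 and 4.31, and the synthase gene TPS1 had a mean of 3.0 ± 0.07 (SD, n = 3). The genes that break trehalose down rose with those that make it, since the trehalases ATH1 (2.76), NTH1 (1.71) and NTH2 (1.48) were induced. Of 14 glycogen genes 12 were induced, with a median of 1.94. Glycogen synthase GSY1 was at 2.28, 3.84 and 2.96, the branching enzyme GLC3 at a mean of 2.77, and the phosphorylase GPH1, which releases glucose, at 1.27. The others were GLC7 (-0.44), the catalytic subunit of the type 1 phosphatase, which was repressed and serves many other processes, and PIG1 (0.25), a targeting subunit of that phosphatase, which was not called.

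Sugar supply and glycolysis did not move as a whole. Of 42 genes of glycolysis and fermentation 12 were induced (28.6%) and 13 repressed (31.0%), with a median of -0.08. These shares were near those of all features (33.8% and 35.4%). The induced included the aldehyde dehydrogenases ALD2, ALD3, ALD4 and ALD6. ALD2 was at 5.25, 4.38 and 4.82, beside its neighbour ALD3 (5.81), while mitochondrial ALD5 fell to -2.11. PGK1, the single phosphoglycerate kinase, was flat at 0.07, and the main pyruvate decarboxylase PDC1 fell to -1.05. Without replicate 3, 7 of the 42 were repressed. Among 20 of 25 genes of hexose transport and glucose sensing that could be tested, 6 were induced (30.0%) and 7 repressed (35.0%), again near all features. HXT5 (6.76) was followed by HXT1 (YHR094C), a low-affinity transporter, at 3.18, 3.77 and 3.15, and by the galactose transporter GAL2 (2.65). HXT2 (-1.16), HXT3 (-1.26) and the glucose repressors MIG1 (-1.39) and MIG3 (-1.41) were repressed. The HXT genes are close in sequence and may share signal.

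Genes of the tricarboxylic acid cycle moved in both directions. Of 18 genes 8 were induced (44.4%, against 33.8% of all features) and 6 repressed (33.3%, against 35.4%), with a median of 0.18. All 4 succinate dehydrogenase genes were among the induced, with SDH4 at 1.61, SDH1 at 1.6, SDH2 at 1.54 and SDH3 at 1.21. The aconitase ACO1 (-1.04) and the isocitrate dehydrogenase subunit IDH1 (-0.63) were repressed. Without replicate 3 the repressed fell from 6 to 3. Among 37 genes of the respiratory chain and ATP synthase 14 were induced (37.8%) and 8 repressed (21.6%). Without replicate 1 or without replicate 2, 4 were repressed. HAP4, the activating subunit of the factor that drives respiratory genes, fell, at -2.53, -1.37 and -2.16.

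The ion transport list was divided, with 12 of 22 members induced (54.5%, against 33.8% of all features), 9 repressed (40.9%, against 35.4%) and a median of 0.58. The sodium pump genes ENA1, ENA2 and ENA5 lie side by side and are nearly identical, so their values are not independent. ENA1 (YDR040C) was at 2.20, 3.55 and 2.45, a mean of 2.73 ± 0.72 (SD, n = 3, limma adjusted p 4.52e-06), and the means of ENA2 and ENA5 were 2.70 and 2.65. Also induced were KHA1 (1.42), a putative potassium and proton antiporter, PHO89 (1.33), which brings in phosphate with sodium, and the kinase gene HAL5 (1.06), which supports potassium uptake. The call of PHO89 was lost without replicate 1 (1.32) and without replicate 3 (1.26). The vacuolar exchanger genes VNX1 (0.74) and NHX1 (0.52) rose less.

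The repressed members included the main potassium importer TRK1 (YJL129C), at -1.05, -0.97 and -0.86, and its partner TRK2 (-0.48). NHA1 (-0.69), the sodium and proton antiporter of the plasma membrane, fell as well, so sodium exporters did not respond as a group. PMA1 (YGL008C), the proton pump that sets the membrane potential, was at -0.98, -0.72 and -1.65, and the small proteins that bind it, PMP1 (-0.74) and PMP2 (-1.40), fell with it, though PMP1 was not called without replicate 2 (-0.68) or without replicate 3 (-0.56). The potassium channel gene TOK1 was induced at 0.76.

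The HOG pathway was divided at the level of its mRNAs. Of 29 members 14 were induced and 10 repressed, against 33.8% and 35.4% of all features, with a median of 0.22, and the induced count was 9 without replicate 1 and 9 without replicate 3. HOG1 (YLR113W), the kinase itself, was flat, at -0.03, 0.36 and 0.00. Its activator PBS2 (-0.12), the phosphorelay gene YPD1 (0.17) and the transcription factor SKO1 (0.02) were also flat. Both sensor branches held repressed genes. SHO1 (-1.07), MSB2 (-0.96), HKR1 (-0.79) and STE20 (-1.05) belong to the mucin branch, and SLN1 (-0.58), SSK2 (-0.42) and SSK22 (-1.29) to the histidine kinase branch. Other upstream members were called induced, namely SSK1 (0.88), STE50 (0.48), OPY2 (0.47) and STE11 (0.41). Among the phosphatases that switch Hog1 off, PTP3 (0.63), PTP2 (0.58) and PTC1 (0.45) rose while PTC2 (YER089C) fell, at -1.77, -1.45 and -1.57. The largest rises were those of MSN2 and of RCK1 (1.38), a kinase related to the Hog1 substrate Rck2.

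Calcineurin is the calcium-activated phosphatase that switches on ENA1 and calcium pumps through Crz1. Its regulator RCN2 (YOR220W) was at 3.31, 3.81 and 3.04, a mean of 3.39 ± 0.39 (SD, n = 3). The vacuolar calcium pump PMC1 (1.32) and exchanger VCX1 (0.86) were induced, CRZ1 rose by 0.33, and the catalytic subunit gene CNA1 was flat at 0.02. In all 6 of 14 members were induced (42.9%, against 33.8% of all features) and 2 repressed (14.3%, against 35.4%). The repressed count was 1 without replicate 1 or without replicate 3, and CRZ1 was not called in either case (0.28 and 0.34).

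In the protein kinase A pathway, which promotes growth on glucose, 14 of 22 members were induced and 4 repressed. The shares were 63.6% and 18.2%, against 33.8% and 35.4% of all features. The catalytic subunit gene TPK2 (1.6) rose, as did YAK1 (1.89), a kinase that the pathway opposes. RAS1 (YOR101W), one of the GTPases upstream, fell by 2.68 from values of -2.79, -2.5 and -2.76, while RAS2 rose by 0.53, a call lost without replicate 1 (0.42). The growth kinase SCH9 (-0.98) and the transcription factor SOK2 (-2.18) were repressed.

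Stress proteins did not respond alike, and the chaperone list was mainly repressed. Of 45 tested members 10 were induced and 24 repressed, and the median was -0.43. The induced were the small heat shock proteins and the stress isoforms. HSP42 was at 4.41, 3.54 and 4.10, HSP26 at 4.38, 2.14 and 2.96, the Hsp70 gene SSA4 at 4.68, 2.57 and 3.13, and the disaggregase HSP104 had a mean of 1.94. The chaperones of ordinary folding fell, with the ribosome-associated ZUO1 at -1.80, the Hsp40 genes YDJ1 (-1.78) and JJJ1 (-1.70), and mitochondrial HSP60 at -1.35. Of the 8 subunits of the TRiC chaperonin, which folds actin and tubulin, 7 were repressed, with a median of -0.56. HSP82, an Hsp90 gene, was not called, at 1.03, -0.11 and 0.05. Replicate 2 was below both other arrays in 29 of the 45 genes, and without it 11 were induced and 21 repressed.

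Of 37 genes of antioxidant defence 19 were induced (51.4%, against 33.8% of all features) and 8 repressed (21.6%, against 35.4%). The highest were TKL2 (7.08), NQM1 (6.64) and CTT1 (6.57), all described above. GRE2 (YOL151W), a methylglyoxal reductase, was at 5.19, 6.59 and 5.04, the mitochondrial peroxiredoxin PRX1 at a mean of 3.27, the aldose reductase GRE3 at 3.20 and the peroxisomal catalase CTA1 at 1.87. The thioredoxin system of the cytosol was divided. Thioredoxin reductase TRR1 (-1.04) and the peroxiredoxin AHP1 (-1.17) fell, the thioredoxin TRX2 (0.54) and the peroxiredoxin TSA2 (0.63) rose, the last not without replicate 3 (0.52), and TSA1 (0.09), the most studied peroxiredoxin, was not called. Copper-zinc superoxide dismutase SOD1 was repressed at -0.29, but not without replicate 2 (-0.28) or without replicate 3 (-0.24).

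The small hydrophilic stress proteins had the highest median of any list, 4.15, and 17 of 18 were induced. DDR2 was at 5.58, 5.29 and 6.14, and FMP16 (5.40), SPI1 (4.84), GRE1 (4.57), SIP18 (4.07) and STF2 (3.35) followed. NOP6 (-1.96), a hydrophilin that works in the nucleolus, was the exception and moved with the ribosome assembly genes. The list was drawn up with earlier results of these arrays known, and its count is a description. PNC1 (YGL037C), a nicotinamidase, rose by 3.82 from 4.15, 3.77 and 3.54, while the nicotinamide-sensitive deacetylase gene SIR2 fell to -1.15.

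Ribosome assembly was the most uniform of the repressed functions. All 59 tested genes of the small subunit processome were repressed, with a median of -2.28, and 68 of 69 genes of large subunit assembly, with a median of -2.48. NOP1 (YDL014W), the methyltransferase fibrillarin, was at -3.15, -3.12 and -3.13, the least varying of the strongly repressed genes named here. ENP1 (-3.32), RRP8 (-3.26) and UTP4 (-3.21) were among the lowest, and RRP7 (-0.41) was the mildest of the processome genes. TIF6 (YPR016C), which keeps the 60S subunit from joining too early, was flat and uncalled, at -0.33, -0.01 and -0.35. RNA polymerase I, which makes the large rRNA precursor, had 13 of 16 genes repressed and a median of -1.34, with RPA43 at -2.99, -3.55 and -3.44. The core factor subunit RRN11 (-2.76) and RPA49 (-2.70) were next, while RRN9 was uncalled at -0.08.

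Cytosolic ribosomal proteins fell less deeply than the genes that assemble them, with 129 of 136 repressed and a median of -1.01. Their array medians were -0.67, -1.24 and -1.09. Within the list RPS26B (-1.95), RPL31B (-1.91), RPL27B (-1.67) and RPS15 (-1.63) were lowest. Of the 7 not called, RPP2A, a stalk protein, was at 0.34, 0.95 and -0.38, and the others were RPL10 (0.04), RPL41B, RPL15A, RPL15B, RPL9A and RPS28A. Many ribosomal protein genes are near-identical pairs whose signal may be shared. Mitochondrial ribosomal proteins were different, with 10 of 74 induced, 23 repressed, 29 flat and a median of -0.11, and 14 were repressed without replicate 3. With all 3 arrays 31.1% were repressed, near the 35.4% of all features, and 13.5% were induced, against 33.8%.

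The rest of translation moved with the ribosome. Of 44 translation factors 39 were repressed, with a median of -1.01, and of 22 aminoacyl-tRNA synthetases 21 were repressed, with a median of -0.85. The tRNA methyltransferase subunit gene GCD10 (-2.35) and the scaffold gene TIF4631 (-2.15) were lowest among the factors, and HEF3 (0.76), the little-used copy of elongation factor 3, was the only one induced. GRS2 (0.27), the second glycyl-tRNA synthetase gene, was the one synthetase not called, while GRS1 fell to -1.29. Among tRNA modification genes 35 of 41 were repressed, led by the methyltransferases TRM11 (-3.25) and TRM2 (-2.84). Of 22 exosome genes, which trim rRNA precursors and degrade RNA, 18 were repressed, with the helicase MTR4 at -2.40. By contrast DCS2 (4.23) and DCS1 (2.39), of the scavenger decapping pathway, were induced in an mRNA decay list with 6 of 32 induced and 14 repressed. Those shares were 18.8% and 43.8%, against 33.8% and 35.4% of all features.

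Regulators of ribosomal genes were not all repressed. TOD6 (YBL054W), a repressor of ribosome assembly genes, fell by 3.32, from -3.21, -3.22 and -3.53, and its paralog DOT6 fell by 1.13. IFH1 (-1.56), the coactivator of ribosomal protein genes, was repressed, and CRF1 (2.32), its corepressor, was induced at 1.94, 2.99 and 2.03. SFP1 (0.54), an activator, was induced.

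**Figure D4:**
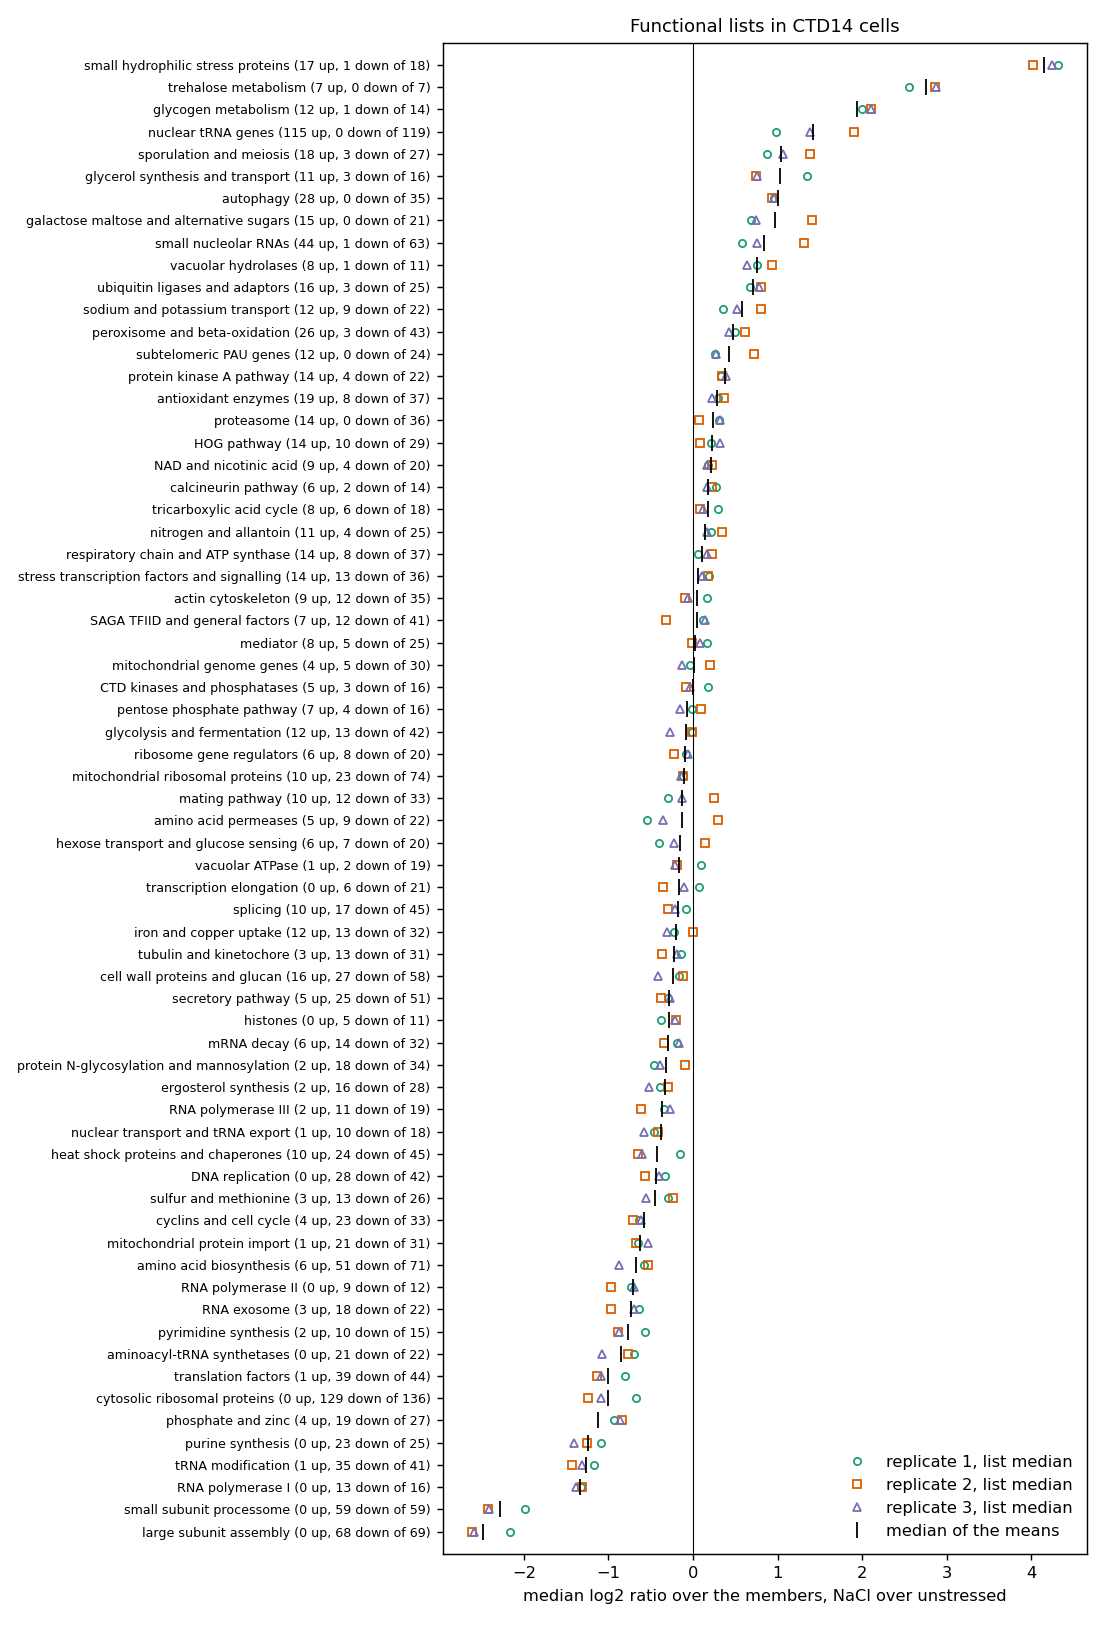
Median log2 ratio over the tested members of each of 67 functional lists on each of the 3 CTD14 arrays, with a bar for the median of the gene means and the numbers called in the row label. Small hydrophilic stress proteins lie highest at 4.15 and large subunit assembly lowest at -2.48.

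Building-block synthesis was repressed broadly. In amino acid synthesis 51 of 71 genes fell and 6 rose, with a median of -0.67. HIS1 (YER055C), of the first step to histidine, was at -2.25, -2.40 and -2.49, and ILV5 (-2.2) and ASN1 (-2.11) were close to it. ARO9 (YHR137W) was counter to the list, at 3.92, 4.66 and 3.57, and encodes a transaminase used to take aromatic amino acids apart. GCN4, the activator of amino acid synthesis genes, was repressed with values of -1.25, -1.23 and -1.25. Sulfur and methionine genes had 13 of 26 repressed, with SAM1 at -1.54, and MET13 rose by 2.14. The induced count of that list was 3, and 1 without replicate 1.

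Purine synthesis held no induced gene. Of 25 members 23 were repressed, with a median of -1.24, and salvage genes were the lowest, with AAH1 (-3.59), HPT1 (-3.28), FCY2 (-3.16), the purine permease, and then ADE4 (-2.09), of the first committed step. ADE2 was not called, at 0.05, -1.03 and 0.09. In pyrimidine synthesis 10 of 15 were repressed, with the salvage gene FUR1 (-2.07), the CTP synthase URA7 (-2.06) and the uridine permease FUI1 (-1.96), while the uracil permease FUR4 rose by 1.31. Ergosterol synthesis had 16 of 28 repressed, with ERG11 (-1.51), the azole target, among them. In phosphate and zinc supply 19 of 27 genes were repressed, including PHO84, the acid phosphatase PHO3 (-2.68) and the polyphosphate gene VTC3 (-1.76). In mitochondrial protein import 21 of 31 were repressed, with the inner membrane insertase OXA1 at -1.93.

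Metal and nutrient uptake was mixed. In iron and copper uptake 12 of 32 were induced (37.5%) and 13 repressed (40.6%), shares near those of all features (33.8% and 35.4%). CTR1 (YPR124W), the copper transporter, was at -3.04, -2.58 and -3.05. The reductase FRE1 (-2.54) and the iron permease FTR1 (-2.35) fell, and the cell wall protein FIT1 rose by 2.22. Among amino acid permeases PUT4 (YOR348C), which imports proline, was at 4.02, 4.63 and 4.0, while TAT1 (-1.66) and SAM3 fell. In this list replicate 2 was above both other arrays in 22 of 22 genes, as for SAM3 at -2.10, -0.67 and -2.24. Of the 22, 5 were induced, and 3 without replicate 2.

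Genes of the cell cycle were mostly down. In the cyclin and cell cycle list 23 of 33 were repressed and 4 induced, and all 9 G1 and B-type cyclins were among the repressed, with a median of -1.01. CLN2 was at -1.59, -1.48 and -1.57, CLB1 had a mean of -2.0 and CLB2 of -1.92. FAR1 (YJL157C), an inhibitor of the G1 cyclin kinase, fell with them, at -3.29, -2.65 and -3.48, and the kinase gene CDC28 rose by 0.68. No DNA replication gene was induced and 28 of 42 were repressed, with MCM7 at -1.63 and the polymerase alpha genes POL1 (-1.55) and POL12 (-1.55). Histones were repressed in 5 of 11 genes (45.5%, against 35.4% of all features), with the linker histone HHO1 at -1.30, but in 1 without replicate 1 and in 2 without replicate 3. The share of cells in each phase was not measured. In the mating list 10 of 33 were induced (30.3%) and 12 repressed (36.4%), shares near those of all features (33.8% and 35.4%). PRM10 (YJL108C) stood out in it at 5.26, 5.20 and 4.39.

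Cell surface genes went both ways. Of 58 genes for cell wall proteins and glucan 16 were induced (27.6%, against 33.8% of all features) and 27 repressed (46.6%, against 35.4%). SPI1 (4.84), CWP1 (2.25) and the protease YPS1 (1.92) were at the top and the glycosidase UTR2 (-2.25) at the bottom. Protein glycosylation had 18 of 34 repressed (52.9%), with the mannosyltransferase MNN1 at -2.58, and the secretory pathway 25 of 51 (49.0%), with the exit-site protein SEC16 at -1.33. SBH1 (2.04), of the translocon, was counter to the secretory list.

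Degradation and reuse were induced. In autophagy 28 of 35 genes rose and none fell, with a median of 1.0. ATG39 (YLR312C), the receptor for the nuclear envelope, was at 3.10, 3.78 and 3.63, and ATG34 (2.55), ATG14 (2.29) and ATG8 (2.20), the ubiquitin-like protein of the autophagosome, followed, while ATG13 was flat at -0.01. Of 11 vacuolar hydrolases 8 were induced, with the mannosidase AMS1 at 1.58 and the aminopeptidase APE1 at 1.56. Peroxisome and beta-oxidation genes rose in 26 of 43, with the thiolase POT1 at 2.13, 3.59 and 3.78 and the isomerase ECI1 at 1.98. Among ubiquitin ligases and adaptors 16 of 25 rose, including the polyubiquitin gene UBI4 (2.34) and the adaptor CSR2 (2.17).

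The proteasome responded weakly by comparison. Its list had 14 of 36 induced (38.9%, against 33.8% of all features) and 15 flat (41.7%, against 18.9%). The median was 0.24, and 9 were induced without replicate 1. Its transcriptional activator RPN4 rose by 1.05, and no subunit gene fell.

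Genes of sporulation and of sugars other than glucose were also mainly induced. In the sporulation and meiosis list 18 of 27 tested genes were induced and 3 repressed, with SPS100 (YHR139C), a spore wall protein, at 5.16, 5.59 and 5.0 and the glucoamylase SGA1 at 2.99. When a value on all 9 arrays was required, fewer members could be tested, 6 were induced and the median was 0.61. Of 21 genes for galactose, maltose and other sugars 15 were induced and none repressed, with a median of 0.97 and array medians of 0.69, 1.41 and 0.75. GAL7 (2.20), MPH3 (2.17), MAL33 (2.05) and XKS1 (2.0) were highest, whereas the invertase SUC2 was flat at -0.03. Replicate 2 was above both others in 19 of the 21, and without it 14 were induced with a median of 0.75. The PAU genes of chromosome ends had 12 of 24 induced, or 6 without replicate 2, and their copies are nearly identical.

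Transcription factors of stress and carbon source moved in both directions, 14 of 36 up and 13 down, shares near those of all features (33.8% and 35.4%). USV1 (YPL230W) was at 3.79, 3.60 and 3.57, and SIP4 (3.22) and CAT8 (2.41), activators of gluconeogenesis, and the repressor NRG1 (2.69) were induced.

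Lists of the core transcription machinery held larger shares of flat genes than the 18.9% of all features, at 57.1% for elongation, 40.0% for Mediator and 39.0% for SAGA, TFIID and general factors. In transcription elongation 12 of 21 genes were flat, 6 were repressed and none induced. Mediator had 10 of 25 flat, 8 induced and 5 repressed, with a median of 0.02. The SAGA, TFIID and general factor list had 16 of 41 flat, 7 induced and 12 repressed, with a median of 0.05. The vacuolar ATPase had 11 of 19 flat. Actin (ACT1) was flat at 0.25, 0.21 and -0.29. RNA polymerase II differed from these, with 9 of 12 tested subunit genes repressed and a median of -0.71, led by RPC10 (-1.48) and RPB8 (-1.36). RPO21 (YDL140C), read from the plasmid in these cells, was at -0.72, -0.39 and -0.77, a mean of -0.63 ± 0.20 (SD, n = 3, limma adjusted p 4.75e-04). Kinases and phosphatases that act on the CTD were divided, 5 of 16 up (31.2%, against 33.8% of all features) and 3 down (18.8%, against 35.4%). KIN28 (YDL108W), the serine 5 kinase of TFIIH, was flat at 0.12, 0.11 and -0.21, while its cyclin CCL1 rose by 0.97. The CTD phosphatase FCP1 fell to -1.03, the serine 5 phosphatase RTR1 rose by 0.91 and ESS1, the prolyl isomerase that acts on the CTD, fell to -1.46.

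Nuclear tRNA genes were almost all induced, and small nucleolar RNAs mostly so with all 3 arrays. Of 119 nuclear tRNA genes with values on all 3 arrays 115 were induced and none repressed, with a median of 1.42 and array medians of 0.98, 1.90 and 1.38. Small nucleolar RNAs, which guide rRNA modification, had 44 of 63 induced and 1 repressed, with a median of 0.84 and array medians of 0.58, 1.31 and 0.76. These ratios were opposite in sign to those of the protein genes for rRNA processing and of RNA polymerase III, which makes tRNA and had 11 of 19 subunit and factor genes repressed, with RPC31 at -2.66 and RPC25 at -2.25. MAF1 (0.82), the repressor of polymerase III, was induced. Array medians were centred near 0, so an induced RNA is one that rose relative to the median feature. Whether the total amount of mRNA changed was not measured, so the signs are relative and not absolute.

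Replicate 2 carried part of the small RNA result. It was above both other arrays in 96 of the 119 tRNA genes, such as tI(UAU)D at 1.89, 4.01 and 2.29. The widest gap was seen in snR45, at 0.96, 4.11 and 1.15. Without replicate 2, 92 of the 119 tRNA genes and 24 of the 63 small nucleolar RNAs were induced, with medians of 1.15 and 0.69. The tRNA genes of a family are near copies and are not independent of each other, and why replicate 2 was higher was not tested. The mitochondrial genome had 4 of 30 features induced, or 1 without replicate 2, and 5 repressed.

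**Figure D5:**
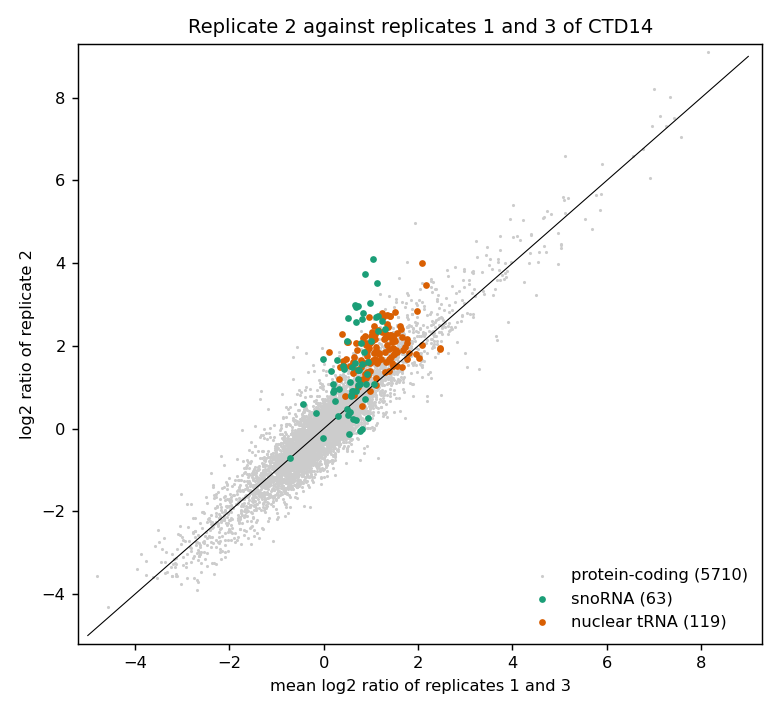
Log2 ratio of each protein-coding gene, nuclear tRNA gene and small nucleolar RNA in CTD14 replicate 2 against the mean of replicates 1 and 3, with the line of equality. Most tRNA and small nucleolar RNA points lie above the line, with snR45 at 4.11 in replicate 2.

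Genes with no standard name were more frequent among the induced. They made up 9.67% of the 5710 protein-coding genes tested, 19% of the 732 that were at least 2-fold up, 5.35% of the 803 that were at least 2-fold down and 5.37% of the flat genes. The functional lists held 1992 of the 5710 genes, with 460 of the 803 at least 2-fold down, 217 of the 732 at least 2-fold up and 379 of the 1154 flat. These lists were chosen with earlier results of these data known. Among the induced without a name YJL107C was at 5.05, 4.41 and 4.29, next to PRM10 (4.95), and YER053C-A at 3.70, 5.40 and 4.33. Reading frames that RefSeq does not list often overlap a named gene, and one of them, YBR116C, had a mean of 6.34 beside TKL2 (YBR117C).

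Strong responses sometimes lay side by side. Of the neighbours of protein-coding genes at least 2-fold up, 22.5% were themselves at least 2-fold up, against 12.8% of all protein-coding genes tested. The shares were 26.3% for tandem, 24% for divergent and 12.9% for convergent pairs. Neighbours of genes at least 2-fold down were down in 18.0%, against 14.1%. Examples are HBT1 and FMP45 (4.64 and 5.73), HXT1 and HXT5, and the run of DDR48, PAI3 and SIP18 (3.76, 2.51 and 4.07). Divergent pairs of ribosome genes included RPA43 with RPA190 (-3.32 and -2.38) and GCD10 with NOP2 (-2.35 and -3.18). Of 5418 pairs 151 had opposite calls of at least 2-fold, 154 joint inductions and 138 joint repressions. The number of each kind for unrelated neighbours was not computed, so these counts do not weigh agreement against disagreement. Tandem duplicates and overlapping transcripts share signal and were not removed.

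Calls also varied with position along the chromosome. Among the 10 outermost genes of each chromosome end 40.6% of 286 were induced and 27.6% repressed, with a median of 0.24. The next 10 had 33.3% induced and 34.0% repressed, and genes further in had 31.0% and 38.5%, with a median of -0.08. Subtelomeric families of near-identical genes are part of the outermost group.

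The response of CTD14 was set against that of the other strains with the same fit, at an adjusted p of 0.025 or below. Against CTD2A, 0 of 6230 features (0%) passed in limma, where the smallest adjusted p was 0.623 and 477 features had an unadjusted p below 0.05. With the replicate number as a block 0 passed again, with a smallest adjusted p of 0.325 and 841 features at an unadjusted p below 0.05. Against CTD5A, 353 of 6226 features (5.67%) passed, and 327 of these were called in CTD14 and responded less in CTD5A. The block raised the count to 649, and leaving out 1 array gave 0 to 363, with 0 without CTD14 replicate 2, without CTD14 replicate 3 or without CTD5A replicate 1, 28 without CTD5A replicate 3, 125 without CTD5A replicate 2, 207 without CTD2A replicate 3 and 213 without CTD2A replicate 2. The SD over features was 0.902, 0.971 and 0.922 on the CTD5A arrays and 1.116, 1.279 and 1.169 on the CTD14 arrays. Strain contrasts were not repeated on values scaled to one spread, so the part of this difference in the count was not tested.

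Among the 12 highest genes 10 had a lower mean in CTD5A. None of the 12 passed, or 1 with the block, and STL1 was lower by 1.22 with a limma adjusted p of 0.0832. Of the 12 lowest, all had a mean nearer 0 in CTD5A, and 5 passed, or 9 with the block. These genes were picked for extreme CTD14 means, which by itself favours a smaller value in the other strain. The differences were 1.62 for DBP3, 1.41 for NOG1, 1.24 for RRS1, 1.19 for RRP12 and 0.87 for MAE1. The trehalose genes TPS2 and TPS1 were lower in CTD5A by 1.15 and 1.06 (limma adjusted p 0.00983 for each). RPO21 was at -1.38 in CTD5A against -0.63 (limma adjusted p 0.0159) and at -0.95 in CTD2A. None of these calls held without CTD14 replicate 2, where the smallest adjusted p of any feature was 0.0264 in limma, while each difference kept its sign with every array left out in turn. Both comparisons share the CTD14 arrays.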

How the data were processed

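Each sample was total RNA, taken by hot phenol lysis, from salt-treated and unstressed cells of a strain, labelled as cDNA and hybridised to a whole-genome tiled 2-colour NimbleGen array. The deposited values are log2 ratios that the authors normalized by procedures their methods cite; array medians near 0 show centring. Strand handling and genome build were not given in the sources used here, so overlapping features may share signal. All columns mapped to samples (0 unmapped). Depth does not apply, and the number of arrays limits precision.

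R 4.3.3 with limma 3.58.1 (lmFit, eBayes) fitted 1 mean per strain over 9 arrays to the 6230 features with values on all 3 CTD14 arrays, with Benjamini-Hochberg adjustment, after tests on simulated data. Symbols came from a RefSeq table (6016 features matched). The members, the 67 lists and the paralog pairs were chosen with earlier results of these data known. Named were the 12 highest and lowest called genes with standard names, up to 4 extreme members of each list, its member nearest 0 and up to 3 called against it, called members of the glycerol, ion and HOG lists, opposite paralogs with 6 other pairs, and RPO21. Other named genes, the 6 sublists, unnamed genes, neighbours and chromosome ends were added after values were seen. CTD14 arrays deviated with the same-numbered arrays of CTD2A (correlations 0.149 to 0.388) and CTD5A (0.166 to 0.231). The main strain contrasts were fitted without pairing, and contrasts with the replicate number as a block were run beside them. This pairing comes from the data and not from the labels, and replicate 3 of CTD2A and CTD5A correlated at 0.062. Alternatives were other centrings, scalings, filters, fits, thresholds, a replicate block and each array left out. Promoter motifs were planned and not analysed here. Some genes of the lists are not reported here.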

Additional observations from a re-analysis of the deposited data

Results flagged for a closer look

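The NaCl response of 5 of the 12 most repressed genes differed between CTD5A and CTD14 in a limma contrast of the strains with Benjamini-Hochberg adjustment, where 353 of 6226 features (5.67%) passed. The 12 were picked for extreme means on the same CTD14 arrays, which favours a smaller value in CTD5A. All 5 fell less in CTD5A, whose arrays had SDs over all features of 0.902 to 0.971 against 1.116 to 1.279 in CTD14. The difference was 1.62 log2 units for the helicase gene DBP3 (adjusted p 0.0088), 1.41 for the GTPase gene NOG1 (adjusted p 0.00983), 1.24 for RRS1 (adjusted p 0.0154), 1.19 for RRP12 (adjusted p 0.022) and 0.87 for the malic enzyme gene MAE1 (adjusted p 0.0233). The first 4 serve ribosome assembly. No call of the 5 held without CTD14 replicate 2, without CTD14 replicate 3 or without CTD5A replicate 1. The cause was not tested.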

How the results depend on the processing

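With all choices but 1 held, 22 alternatives were run, and no feature called with all 9 arrays was called in the opposite direction under any of the 20 other fits. Leaving out 1 array gave 3764 to 4333 called features, 1836 to 2115 induced, 1928 to 2218 repressed, 841 to 1000 at least 2-fold up, 778 to 902 at least 2-fold down and 820 to 1213 flat. The flat count depended on its definition: a bound of 0.3 log2 units gave 217 and a 99% interval gave 613. The median changed sign in 7 lists near 0, in 12 of 1203 values, each time by less than the spread between arrays. With the replicate block 4497 features were called in CTD14. The count differing from CTD5A rose to 649 with the block, and that from CTD2A stayed at 0. Leaving out 1 array gave 0 to 363 for CTD5A and 0 for CTD2A. The strain alternatives were chosen after the data were seen. Of 285 named genes 14 lost their call somewhere (CDC19, CRZ1, DAK2, GND1, GPM1, GUT1, HXK2, PHO89, PMP1, RAS2, SOD1, SSE1, TAL1 and TSA2), each also without 1 CTD14 array. Without replicate 1 these were CRZ1 (0.28), DAK2 (1.0), GUT1 (0.25), HXK2 (-0.28), PHO89 (1.32) and RAS2 (0.42). Without replicate 2 they were DAK2 (0.94), GPM1 (-0.42), GUT1 (0.27), PMP1 (-0.68), SOD1 (-0.28) and SSE1 (-0.47), and without replicate 3 CDC19 (-0.3), CRZ1 (0.34), GND1 (-0.31), GPM1 (-0.32), HXK2 (-0.17), PHO89 (1.26), PMP1 (-0.56), SOD1 (-0.24), SSE1 (-0.52), TAL1 (-0.3) and TSA2 (0.52). Only uncalled genes near 0 changed sign. Their ranges with 1 array left out were ADE2 (-0.49 to 0.07), ATG13 (-0.09 to 0.06), CNA1 (-0.06 to 0.08), ENO1 (-0.09 to 0.17), ENO2 (-0.32 to 0.03), HOG1 (-0.01 to 0.18), HSP82 (-0.03 to 0.54), KIN28 (-0.05 to 0.11), PGK1 (-0.09 to 0.24), RPL10 (-0.21 to 0.20), RPL15B (-0.16 to 0.11), RPL41B (-0.18 to 0.02), RPP2A (-0.02 to 0.64), SKO1 (-0.02 to 0.06), SUC2 (-0.19 to 0.14), TDH1 (-0.11 to 0.14) and TSA1 (-0.05 to 0.33). Array weights turned ADE2 (0.00), ATG13 (0.09), CNA1 (-0.01), ENO1 (-0.12), KIN28 (-0.14), PGK1 (-0.14), RPL10 (-0.15), RPP2A (-0.19), RRN9 (0.02), TDH1 (-0.17) and TSA1 (-0.24). Mode centring turned ATG13 (0.07), RPL15B (0.07), RRN9 (0.00) and SUC2 (0.06), median centring ATG13 (0.00) and RPL15B (0.00), and scaling to one spread RPL15B (0.00). The cause was not tested.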
